A study of Mus musculus with 24 samples.

Results

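The transcripts of Reep2, Ntmt1, Id3, Pex6, Nosip, Znrd2, P2ry6, Blvrb, Crip2 and Zfp414 were picked from mouse hippocampus because their ratio of N6-methyladenosine (m6A) immunoprecipitate (IP) to input was higher in 5xFAD than in wild-type mice. They are 10 of the 55291 genes in the count table. All 10 entered the tested set of 18300 genes, and the lowest count of any of them in any library was 12, so that all had counts in every group. Because the ratio chose them, their ratios against wild-type are given as a description, and no call on them in that contrast is read as a result. The values below split each ratio into its input and IP parts per animal, place the peaks and compare MS1262 with vehicle.

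The study profiled hippocampal poly(A) RNA of 12 mice, with 1 input and 1 IP library per animal, in 3 groups of 4. The first was wild-type and untreated, of matching age by the protocol, the second 5xFAD with vehicle, and the third 5xFAD with MS1262, which the title of the series describes as a G9a inhibitor that enters the brain. G9a is a histone methyltransferase. The 5xFAD line models amyloid pathology through mutant human transgenes driven in neurons by the Thy1 promoter. The labels used here give no sex, age, dose or duration. Since the wild-type mice received no vehicle, genotype and dosing cannot be told apart in any comparison with them.

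m6A is set on messenger RNA by a writer complex built on METTL3 and METTL14, removed by the demethylases FTO and ALKBH5, and bound by reader proteins of the YTH family, which link it to the splicing, translation and decay of transcripts. In the brain it is known for roles in neuronal development and memory. In the assay, an antibody against m6A pulls down modified RNA, and the ratio of IP to input is read as enrichment. A higher ratio can come from more RNA in the IP, from less RNA in the input, or from both.

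Peaks reached an annotated start in 2 of the 8 genes with a RefSeq start window, and the sequence there is shown because it is where the pulled-down reads of these genes can be placed on RefSeq sequence (GRCm38.p6, plus strand, written 5′ to 3′). For Id3 the stretch is chr4:136143842-136143871, the last 30 bases of the start window, with capitals for the 10 bases covered by the peaks of all 5 animals that had a peak there. For Crip2 it is chr12:113140569-113140654, covered whole by the peaks of 2 animals, with the first ATG in capitals. The annotated start reached there is chr12:113140605, downstream of that ATG, and is not the start of the gene at chr12:113140236.
Id3: tgtctcttttcctccctctcTATCTCTACT
Crip2: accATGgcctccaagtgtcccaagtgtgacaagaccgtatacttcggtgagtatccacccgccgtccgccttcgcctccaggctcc
Neither stretch holds GGAC, the most common core of m6A sites, on the transcribed strand. Over the first 50 transcribed bases, 1 of 11 start windows of these 8 genes held GGAC, against 18.9% of all 32851 windows. It was the window at the gene start of Crip2, chr12:113139986-113140285, where 0 animals had a peak. These letters say nothing of the rest of each transcript, where most of the peaks lay. The protocol names no fragmentation step and the copies start from an oligo-dT primer, so a peak's position does not mark the modified base.

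Libraries held 3984481 to 48597732 counts, and the shallowest was the IP library of vehicle animal 4. Vehicle animal 3 stood apart. The choroid plexus gene Ttr reached 7032 CPM (counts scaled to a common library size) in its input, against 31.7 to 730.3 CPM in the other 11 animals, and the X-inactivation RNA Xist was at 1.30 CPM, against 21.4 to 48.0 CPM. Markers of the hippocampus were detected in every group, with 0 of 5 at 0. The split of the vehicle difference is also given without animal 3 and without animal 4 where that moved it by over 1.5 times or turned its sign. These are bulk samples, in which fewer cells of a type and less RNA per cell cannot be told apart.

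The ratio of IP to input was higher in 5xFAD for every one of the 10 genes, and the difference came from both sides: the median gene had less RNA in the input and more RNA in the IP. In log2 units against the wild-type mean, the median input part was -0.64 in vehicle and -0.83 in MS1262 animals, and the median IP part was 0.79 and 0.85. Together they gave a median difference in the log2 ratio of 1.50 and 1.59, or 2.82-fold and 3.00-fold. Over all 18300 genes the medians of the log2 ratio difference were -0.07 and 0.00. Without vehicle animal 3 the vehicle parts were -0.66 for input and 0.85 for IP, and without animal 4 they were -0.82 and 0.53. By size of the vehicle difference the 10 genes ranked 308 to 643 of 18300, and 378 other genes had a difference in both 5xFAD groups together at least as large as the smallest of the 10.

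**Figure D1:**
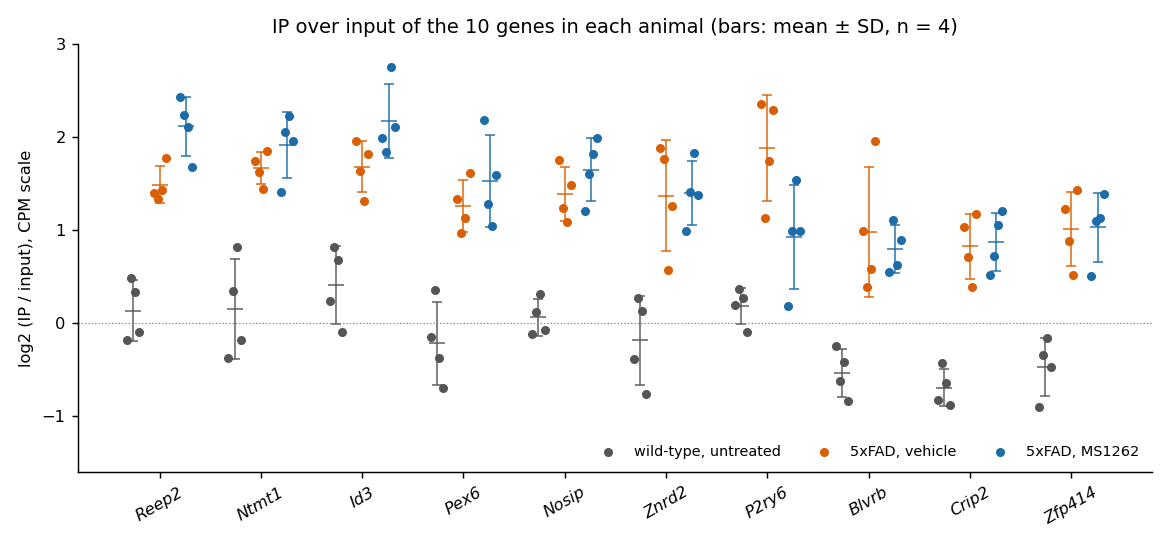
The log2 ratio of IP to input (y axis, CPM scale) of the 10 genes in each of 12 animals, with group mean and SD (n = 4). All 8 5xFAD animals sit above all 4 wild-type animals for 9 genes, and MS1262 animal 1 overlaps wild-type for P2ry6.

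Of 80 pairs of a gene and a 5xFAD animal, the ratio lay above all 4 wild-type animals in 79, the IP level in 60, and the input level below all 4 wild-type animals in 55. No share over all genes is given for such pairs, the ratio chose these genes, and the genes share libraries. Nothing is read from these counts, nor from the counts of animals beyond the wild-type range given for single genes below. Every 5xFAD animal exceeded every wild-type animal in the ratio for 9 of 10 genes, against 2.7% of all genes. The separation was rarer in each part alone. In the input, every 5xFAD animal was below every wild-type animal for 1 of 10 genes (Pex6), against 1.37% of all genes. In the IP, every 5xFAD animal was above every wild-type animal for 2 of 10 genes (Reep2 and Id3), against 1.72%. The edgeR quasi-likelihood fit over all genes, with adjusted p below 0.05 and the animal as a block, placed 10 of 10 genes higher in vehicle and 8 of 10 in MS1262 animals (all but P2ry6 and Blvrb), against 0.962% and 1.22% of all genes called higher and 0.0273% and 0.0219% called lower. As the choice of genes used this contrast, nothing is read from these calls. Leaving out 1 animal at a time left 5 to 10 and 7 to 9 of them past the threshold, and without the animal as a block 0 and 1.

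Reep2 and P2ry6 act in or on membranes. Reep2 belongs to the receptor expression-enhancing proteins, which shape the tubular endoplasmic reticulum. Its input level was 18.6, 13.2, 10.4 and 13.3 CPM in wild-type animals 1 to 4, 7.44, 8.23, 8.67 and 10.7 CPM in vehicle animals and 7.31, 7.54, 5.52 and 7.36 CPM in MS1262 animals. Its IP level was 16.4, 18.5, 13.2 and 12.4 CPM in wild-type animals 1 to 4, 19.7, 20.9, 23.5 and 37.0 CPM in vehicle animals and 39.7, 35.8, 24.1 and 23.7 CPM in MS1262 animals. In the input, 7 of 8 5xFAD animals were below all wild-type animals, and in the IP 8 of 8 were above them. The log2 ratio was 0.13 ± 0.33 (SD, n = 4) for wild-type, 1.49 ± 0.20 for vehicle and 2.11 ± 0.32 for MS1262. In log2 units, the input part was -0.64 in vehicle and -0.98 in MS1262 animals, and the IP part was 0.71 and 1.01, close to equal shares.

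P2ry6 encodes a G protein-coupled receptor for UDP that microglia use in phagocytosis. Per transcript length it was the least abundant of the 10 genes in wild-type input, but not in MS1262 input, where Pex6 was lower. Its input level was 2.06, 1.45, 1.24 and 1.52 CPM in wild-type animals 1 to 4, 0.652, 2.59, 0.512 and 2.04 CPM in vehicle animals and 2.71, 2.28, 1.84 and 2.14 CPM in MS1262 animals. In the IP, P2ry6 was at 2.37, 1.89, 1.51 and 1.42 CPM in wild-type animals 1 to 4, 3.62, 5.74, 1.87 and 10.2 CPM in vehicle animals and 3.09, 4.60, 5.47 and 4.31 CPM in MS1262 animals. Vehicle animals 1 and 3 were the lowest in the input, vehicle animal 2 was above every wild-type animal, vehicle animal 4 was just under the highest of them, and no MS1262 animal was below the wild-type range. Its log2 ratio was 0.18 ± 0.20 (SD, n = 4) for wild-type, 1.88 ± 0.57 for vehicle and 0.92 ± 0.56 for MS1262. Here the input part was -0.38 in vehicle and 0.51 in MS1262 animals, and the IP part was 1.32 and 1.25. The vehicle input part moved with the animal left out: it was -0.25 without wild-type animal 1, and -0.12, -0.75, -0.02 and -0.64 without vehicle animals 1, 2, 3 and 4. The lowest P2ry6 counts behind these values were 12 in the input and 17 in the IP.

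Ntmt1, Nosip, Blvrb and Pex6 encode enzymes. Ntmt1 methylates the amino group at the start of proteins whose first methionine has been removed. Levels in the input were 18.5, 16.4, 9.67 and 10.7 CPM in wild-type animals 1 to 4, 6.19, 6.61, 8.71 and 14.6 CPM in vehicle animals and 9.53, 6.75, 4.82 and 6.12 CPM in MS1262 animals. The IP level of Ntmt1 was 14.3, 20.8, 17.1 and 9.45 CPM in wild-type animals 1 to 4, 20.8, 20.5, 23.8 and 52.7 CPM in vehicle animals and 25.3, 28.3, 22.9 and 24.01 CPM in MS1262 animals. Vehicle animal 4 was the exception in both parts, with an input inside the wild-type range and the highest IP level of all 12 animals. The log2 ratio was 0.15 ± 0.54 (SD, n = 4) for wild-type, 1.66 ± 0.17 for vehicle and 1.91 ± 0.36 for MS1262. For this gene the input part was -0.64 in vehicle and -1.0 in MS1262 animals, and the IP part was 0.87 and 0.76. The vehicle IP part was 0.55 without vehicle animal 4.

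Nosip encodes a ubiquitin ligase that binds nitric oxide synthases. In the input it was at 31.3, 31.7, 20.1 and 20.6 CPM in wild-type animals 1 to 4, 10.1, 13.01, 19.8 and 30.4 CPM in vehicle animals and 17.7, 13.2, 10.0 and 8.57 CPM in MS1262 animals. In the IP it was at 28.98, 34.5, 25.1 and 19.6 CPM in wild-type animals 1 to 4, 34.1, 30.8, 42.1 and 85.1 CPM in vehicle animals and 40.9, 40.3, 35.4 and 34.1 CPM in MS1262 animals. All MS1262 animals and 3 of 4 vehicle animals were below the wild-type range in the input, while 5 of 8 5xFAD animals were above that range in the IP. The log2 ratio was 0.06 ± 0.20 (SD, n = 4) for wild-type, 1.39 ± 0.29 for vehicle and 1.65 ± 0.34 for MS1262. In MS1262 animals most of the difference lay in the input, since the input part was -0.59 in vehicle and -1.08 in MS1262 animals, and the IP part was 0.73 and 0.50. The vehicle input part was -0.35 without vehicle animal 1, and the vehicle IP part 0.42 without vehicle animal 4.

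Blvrb encodes an NADPH-dependent reductase of biliverdin and flavins. The input level was 4.10, 4.49, 2.29 and 3.39 CPM in wild-type animals 1 to 4, 1.96, 1.88, 2.90 and 4.00 CPM in vehicle animals and 3.48, 2.19, 3.05 and 1.75 CPM in MS1262 animals. The IP level was 3.44, 2.90, 1.69 and 1.86 CPM in wild-type animals 1 to 4, 3.96, 2.47, 4.39 and 15.7 CPM in vehicle animals and 5.14, 4.81, 4.73 and 3.30 CPM in MS1262 animals. Input levels overlapped between genotypes, and 6 of 8 5xFAD animals were above the wild-type range in the IP, vehicle animal 4 by the most. Its log2 ratio was -0.53 ± 0.26 (SD, n = 4) for wild-type, 0.98 ± 0.70 for vehicle and 0.79 ± 0.26 for MS1262, with the widest spread among vehicle animals of any of the 10 genes. In log2 units, the input part was -0.42 in vehicle and -0.44 in MS1262 animals, and the IP part was 1.09 and 0.89. The vehicle IP part was 0.55 without vehicle animal 4, and the input part was -0.28 in vehicle without animal 2 and -0.27 in MS1262 without animal 4.

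Pex6 encodes an ATPase that returns the import receptor of peroxisomes to the cytosol. In the input Pex6 was at 6.83, 5.00, 4.86 and 5.01 CPM in wild-type animals 1 to 4, 2.64, 3.00, 3.502 and 4.32 CPM in vehicle animals and 2.29, 4.12, 3.87 and 2.45 CPM in MS1262 animals. Its IP level was 6.15, 6.44, 3.73 and 3.06 CPM in wild-type animals 1 to 4, 6.76, 5.92, 7.77 and 13.4 CPM in vehicle animals and 10.7, 10.1, 8.07 and 7.54 CPM in MS1262 animals. Pex6 was the 1 gene of the 10 whose input was lower in every 5xFAD animal than in every wild-type animal, and 7 of 8 were above the wild-type range in the IP. The log2 ratio was -0.22 ± 0.44 (SD, n = 4) for wild-type, 1.26 ± 0.28 for vehicle and 1.53 ± 0.49 for MS1262. For Pex6, the input part was -0.69 in vehicle and -0.79 in MS1262 animals, and the IP part was 0.79 and 0.95.

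Id3, Crip2, Zfp414 and Znrd2 encode regulators and zinc-binding proteins. Id3 is a helix-loop-helix protein without a DNA-binding region that pairs with E proteins and keeps them off DNA. Its input level was 9.79, 7.21, 6.05 and 6.33 CPM in wild-type animals 1 to 4, 4.78, 5.13, 8.84 and 14.2 CPM in vehicle animals and 7.96, 6.80, 3.11 and 3.89 CPM in MS1262 animals. Its IP level was 11.6, 12.7, 9.69 and 5.90 CPM in wild-type animals 1 to 4, 18.7, 16.1, 22.1 and 50.4 CPM in vehicle animals and 31.8, 24.5, 21.3 and 17.0 CPM in MS1262 animals. The genotypes overlapped in the input, where vehicle animal 4 was the highest of all 12, and did not overlap in the IP. The log2 ratio was 0.41 ± 0.42 (SD, n = 4) for wild-type, 1.68 ± 0.28 for vehicle and 2.173 ± 0.40 for MS1262. For Id3 the input part was 0.05 in vehicle and -0.50 in MS1262 animals, and the IP part was 1.32 and 1.26. The sign of the vehicle input part turned with the animal left out, from -0.26 without vehicle animal 4 to 0.26 without vehicle animal 1, and it was also -0.03, -0.01 and -0.03 without wild-type animal 3, wild-type animal 4 and vehicle animal 3. The MS1262 input part was -0.27 without MS1262 animal 3.

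Crip2, a cysteine-rich protein with LIM domains, was per transcript length the most abundant of the 10 genes. Its level in the input was 102, 98.3, 98.0 and 60.2 CPM in wild-type animals 1 to 4, 34.6, 34.0, 43.6 and 99.4 CPM in vehicle animals and 68.1, 41.8, 30.1 and 28.2 CPM in MS1262 animals. The IP level was 57.7, 73.0, 62.8 and 32.8 CPM in wild-type animals 1 to 4, 70.8, 55.5, 57.3 and 224 CPM in vehicle animals and 97.5, 69.1, 62.5 and 65.3 CPM in MS1262 animals. The input was below the wild-type range in 6 of 8 5xFAD animals, whereas the IP was above it in 2 of 8, vehicle animal 4 and MS1262 animal 1. Its log2 ratio was -0.69 ± 0.20 (SD, n = 4) for wild-type, 0.83 ± 0.35 for vehicle and 0.88 ± 0.31 for MS1262. With all animals the larger part was the input: the input part was -0.88 in vehicle and -1.15 in MS1262 animals, and the IP part was 0.63 and 0.42. The vehicle IP part was 0.17 without vehicle animal 4 and 0.39 without wild-type animal 4, and the MS1262 IP part was 0.17 without wild-type animal 4 and 0.27 without MS1262 animal 1.

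Zfp414 encodes a zinc finger protein. Its input level was 31.1, 24.4, 12.7 and 15.4 CPM in wild-type animals 1 to 4, 7.99, 11.23, 14.8 and 15.1 CPM in vehicle animals and 16.5, 11.1, 8.34 and 8.54 CPM in MS1262 animals. Its IP level was 16.6, 19.2, 11.3 and 11.1 CPM in wild-type animals 1 to 4, 18.8, 20.7, 21.2 and 40.8 CPM in vehicle animals and 23.5, 23.6, 18.3 and 22.4 CPM in MS1262 animals. All 8 5xFAD animals were below the wild-type mean in the input, 5 of them below the wild-type range, and 6 of 8 were above that range in the IP. The log2 ratio was -0.47 ± 0.31 (SD, n = 4) for wild-type, 1.01 ± 0.40 for vehicle and 1.03 ± 0.37 for MS1262. For Zfp414 the input part was -0.72 in vehicle and -0.87 in MS1262 animals, and the IP part was 0.76 and 0.63.

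Znrd2 encodes a small zinc ribbon protein whose human counterpart was described as an autoantigen in Sjögren's syndrome and scleroderma. The input level was 7.67, 7.96, 4.86 and 4.41 CPM in wild-type animals 1 to 4, 2.2, 1.78, 5.21 and 7.47 CPM in vehicle animals and 5.50, 4.08, 2.67 and 2.54 CPM in MS1262 animals. The IP level was 5.86, 9.64, 5.33 and 2.57 CPM in wild-type animals 1 to 4, 8.31, 6.18, 7.77 and 17.98 CPM in vehicle animals and 10.9, 10.98, 9.65 and 6.68 CPM in MS1262 animals. Each part overlapped between genotypes in several animals, with 5 of 8 below the wild-type range in the input and 4 of 8 above it in the IP, and only the ratio did not overlap. That log2 ratio was -0.18 ± 0.48 (SD, n = 4) for wild-type, 1.37 ± 0.60 for vehicle and 1.401 ± 0.35 for MS1262. For this gene the input part was -0.76 in vehicle and -0.77 in MS1262 animals, and the IP part was 0.79 and 0.82. The IP part was 0.45 in vehicle and 0.48 in MS1262 animals without wild-type animal 4 and 0.47 in vehicle without vehicle animal 4, and the vehicle input part was -0.44 without vehicle animal 2.

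**Figure D2:**
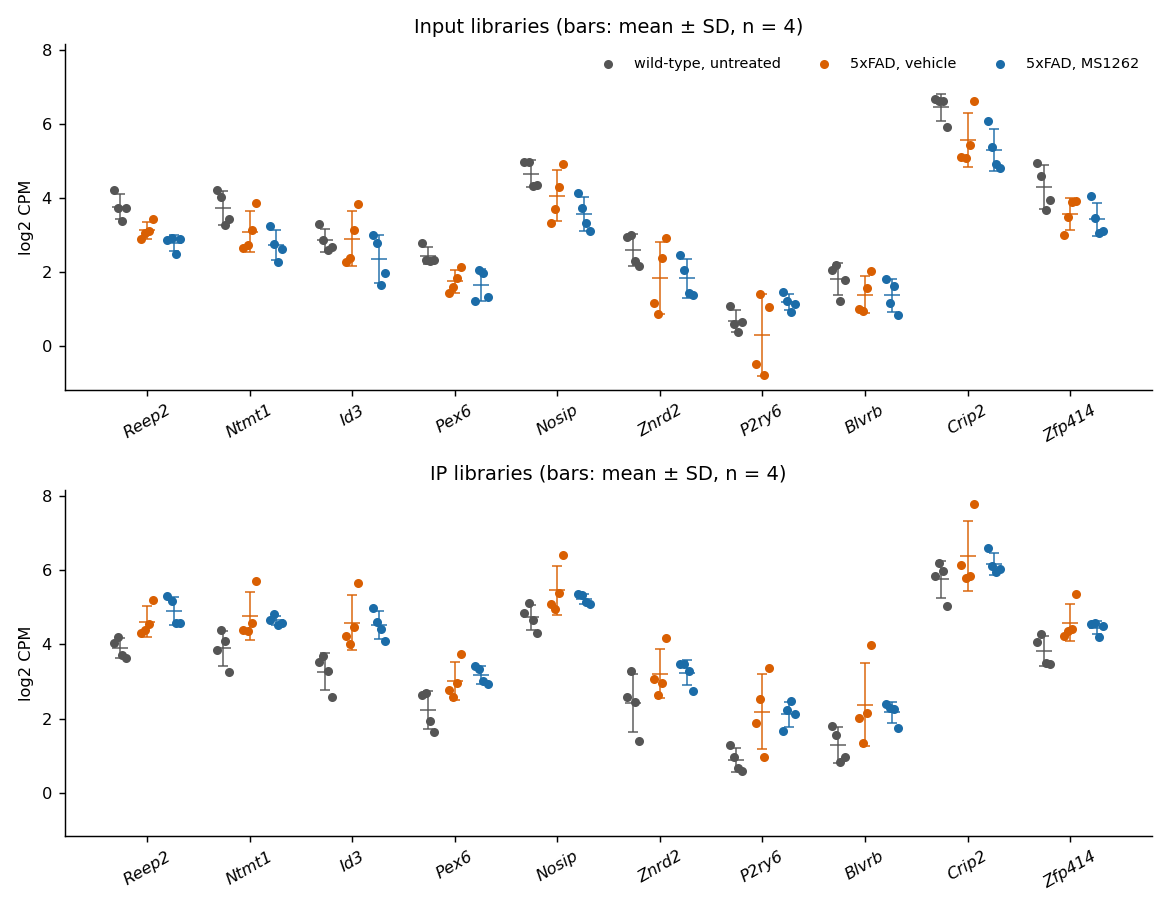
Input (top) and IP (bottom) levels in log2 CPM of the 10 genes in each animal, with group mean and SD (n = 4). Vehicle animal 4 is the highest 5xFAD point in the IP panel for all 10 genes but Reep2, and its input lies within or above the wild-type range for 9 of 10.

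The genes differed in where the change lay. With both 5xFAD groups together, the IP part made up 34.1% of the log2 difference for Crip2, 42.4% for Nosip and 46.6% for Zfp414, and 49.6% to 54.1% for Ntmt1, Znrd2, Reep2 and Pex6. It made up 69.5% for Blvrb, 85.0% for Id3 and 105% for P2ry6, whose mean input was slightly higher than in wild-type. Within the vehicle group, animals also differed in the balance. The median of the 10 genes in the input was -1.13, -0.84, -0.51 and 0.19 against the wild-type mean in animals 1 to 4, and in the IP it was 0.52, 0.41, 0.66 and 1.79. In MS1262 animals the input medians were -0.30, -0.73, -1.21 and -1.11 and the IP medians 0.94, 1.02, 0.74 and 0.67. Vehicle animals with a higher input had mostly also a higher IP, and the ratio medians stayed between 1.102 and 1.763 in all 8 5xFAD animals.

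**Figure D3:**
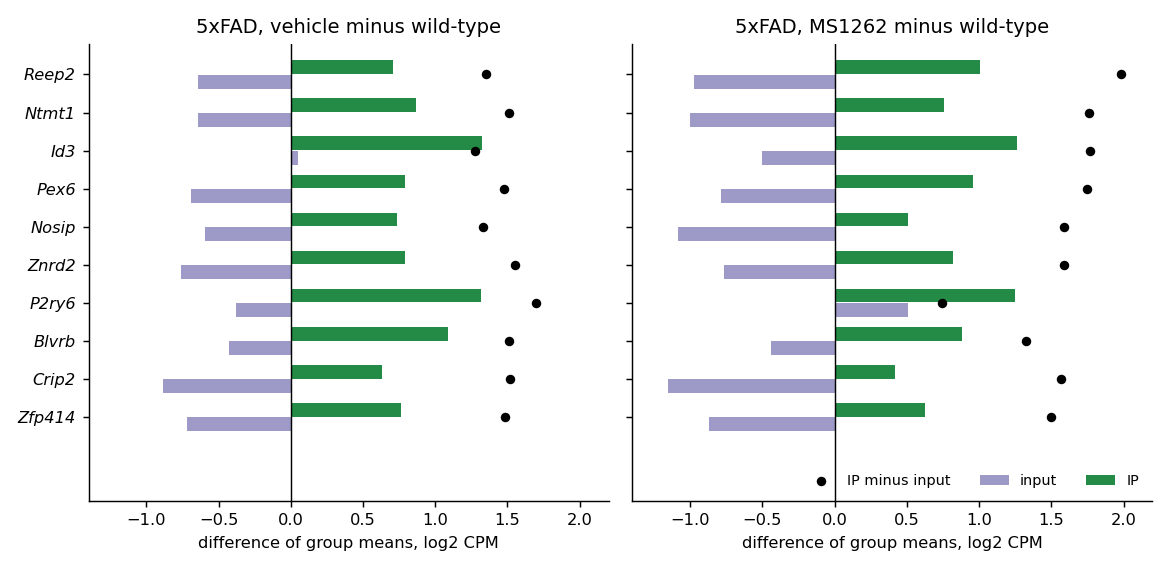
Differences of group means in log2 CPM (x axis) for vehicle (left) and MS1262 (right) against wild-type, with bars for the input and IP parts and points for IP minus input. The input bar is negative and the IP bar positive for 8 of 10 genes in both groups, the exceptions being Id3 (vehicle input 0.05) and P2ry6 (MS1262 input 0.51).

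In pairs of the 10 genes, deviations from the group mean over the 12 animals had a median Pearson r of 0.65 in the input (45 pairs, 0.05 to 0.95), 0.85 in the IP (0.34 to 0.95) and 0.51 in the ratio (-0.19 to 0.88, positive in 39). These points share libraries and their scaling, and are given as a description. On a per-length scale, as the authors' TPM in wild-type input, Crip2 was highest at 85.3 ± 17.2 TPM (SD, n = 4), followed by Zfp414 (21.2 ± 8.004), Nosip (17.6 ± 4.91), Ntmt1 (13.1 ± 3.56) and Znrd2 (12.8 ± 3.598). Reep2 (7.72 ± 1.80), Id3 (6.73 ± 1.36), Blvrb (5.78 ± 1.66), Pex6 (1.71 ± 0.260) and P2ry6 (0.873 ± 0.202) followed. Neighbours from Zfp414 to Znrd2, and from Reep2 to Blvrb, lay within 1 SD of each other, whereas Crip2 stood clear of the rest.

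The 10 genes had short transcripts. By the length implied by counts and TPM, 9 of 10 were below the median of the tested genes and 6 were at or below percentile 19.6 of length, from Znrd2 at 0.206 of the median length to Reep2 at 0.764, with Pex6 at 1.30. Length moved with the ratio over all genes too: the median log2 ratio difference of 5xFAD against wild-type was 0.08 in the shortest of 10 length classes and -0.19 in the longest (1830 genes each). The part of length in the difference was not tested. The genes with the most similar ratio profile over the 12 animals were Sgta (Pearson r = 0.98), Jpt1 (0.98), Pigyl (0.98), Nhp2 (0.97) and Pfdn6 (0.97), all among genes with a mean log2 CPM of at least 1. Group means were not removed here, unlike in the pairs above, so these r hold the step between genotypes that chose the 10 genes. Sgta, for example, had a mean log2 ratio of 1.18 in wild-type and 2.36 in 5xFAD.

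Peaks, called by the authors in each animal on the same reads, were searched in the gene bodies. They are no independent evidence of the difference. A peak lay in 7 of the 10 genes in at least 1 animal, against 34.7% of all 16881 genes with a position, and Pex6, P2ry6 and Blvrb had none in any animal. Of 40 pairs of a gene and an animal, 6 had a peak among wild-type animals (15%), 26 among vehicle animals (65%) and 28 among MS1262 animals (70%), against a mean of 13.1%, 16.3% and 17.3% of all genes. Every 5xFAD animal had a peak in 6 of 10 genes, against 6.2% of all genes, and every wild-type animal in 0 of 10, against 5.9%. Wild-type animals 1 and 4 had no peak in any of the 10 genes, and Crip2 and Zfp414 had peaks in all 8 5xFAD animals and in none of the wild-type. An absent call is not absent m6A, since the lowest pileup called ranged from 23 to 70.5 reads between lists and the lists held 3534 to 6591 peaks.

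Most peaks lay toward the end of the gene. All copies were primed with oligo-dT, and its part in these positions was not tested. In Ntmt1 a region at chr2:30822253-30822956 (mm10, as all peak positions), ending 77 bases before the annotated end, was called in 2 wild-type and all 8 5xFAD animals, and 2 regions upstream of it in 5xFAD only, in 6 and 2 animals. In Nosip both regions, chr7:45076015-45077038 and chr7:45077223-45078162, were called in all 8 5xFAD animals and in 1 wild-type animal each. The RefSeq gene Prrg2 overlaps the start of the Nosip gene, away from both regions. In Zfp414 the region at chr17:33631013-33631593, ending 123 bases before the gene's end, was called in all 8, and in Znrd2 the region at chr19:5730401-5730796, 95 bases from the end on the minus strand, in 6. Another Znrd2 region, chr19:5731309-5731664, toward the gene's start at 5731732, was called in 1 vehicle and 1 MS1262 animal. In Reep2 the peaks merged into a single region, chr18:34845802-34847421, called in 9 animals.

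Id3 and Crip2, like Znrd2, had peaks toward both ends. In Id3 the regions chr4:136143824-136144496 and chr4:136144773-136145340 together covered most of the gene and were each called in 9 animals, and the first reached the start window whose sequence is printed above in vehicle animals 3 and 4 and MS1262 animals 1, 2 and 3. In Crip2 a region at chr12:113140556-113140785, over the printed stretch with the first ATG, was called in vehicle animal 4 and MS1262 animal 4, and the other 3 regions, from chr12:113143331-113143746 on to chr12:113144829-113145466, in 7 or 8 animals. The authors' fold enrichment of the highest peak, where called, was 2.31 in wild-type animal 2 for Id3, 3.36, 2.71, 3.82 and 3.70 in vehicle and 3.86, 4.32, 4.44 and 4.01 in MS1262 animals. For Reep2 it was 1.66 in wild-type animal 2, 2.12, 2.30, 2.87 and 2.94 in vehicle and 4.09, 4.00, 4.04 and 2.84 in MS1262 animals. Every one of these 5xFAD values was above the wild-type value of the same gene.

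**Figure D4:**
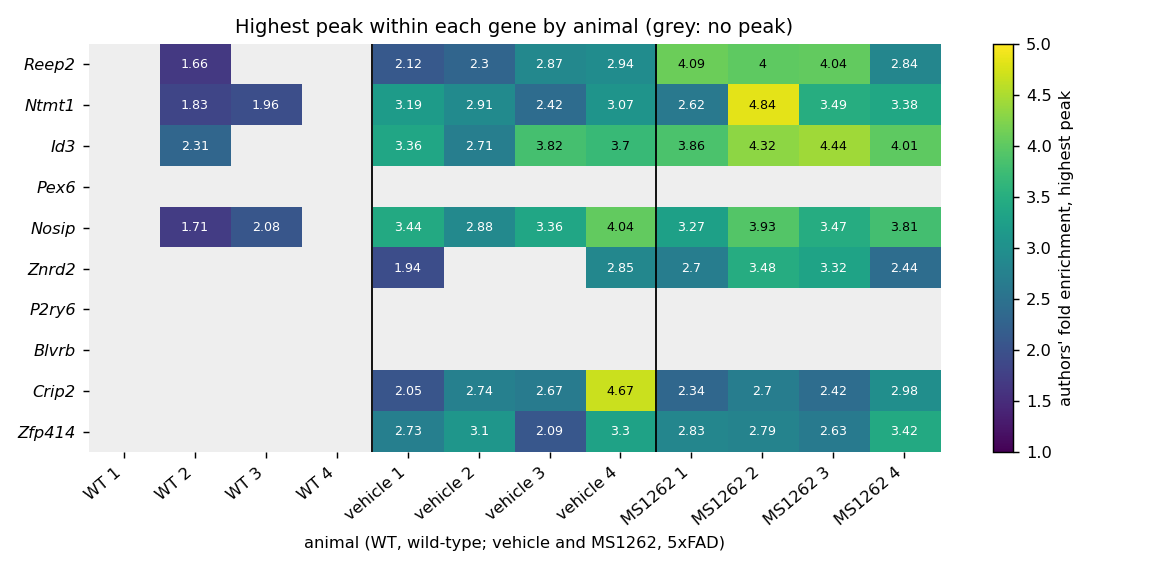
The authors' fold enrichment of the highest peak in each gene (rows) and animal (columns), grey where no peak was called. Values lie between 1.66 and 2.31 in the 6 wild-type cells and between 1.94 and 4.84 in the 5xFAD cells.

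MS1262 was compared with vehicle within 5xFAD, a contrast that did not choose the genes, although the same 5xFAD libraries entered their choice. No difference in the ratio passed edgeR's quasi-likelihood test for any of the 10 genes (adjusted p = 1 for each), and 0 of 18300 genes did, 0%, with 434 genes or 2.37% at an unadjusted p below 0.05 and 2 genes past DESeq2's adjusted threshold. Reep2 had a higher ratio in MS1262 animals, with a log2 difference of 0.63 (SE 0.20, 95% interval 0.21 to 1.06). P2ry6 had a lower one, -1.0 (SE 0.37, 95% interval -1.78 to -0.22). Their intervals, not corrected for the number of genes, were the 2 that left out 0. In every alternative the sign was kept, from 0.46 to 0.78 for Reep2 and from -1.30 to -0.45 for P2ry6, and the smallest adjusted p of any of the 10 genes was 0.896.

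For the other genes the log2 difference was 0.48 (SE 0.24, 95% interval -0.02 to 0.99) for Id3, 0.26 (SE 0.29, 95% interval -0.35 to 0.87) for Pex6 and 0.26 (SE 0.19, 95% interval -0.14 to 0.65) for Nosip. For Ntmt1 it was 0.24 (SE 0.24, 95% interval -0.27 to 0.75), and for Blvrb -0.22 (SE 0.33, 95% interval -0.91 to 0.47). Estimates close to 0 belonged to Znrd2 with 0.04 (SE 0.31, 95% interval -0.62 to 0.70), Crip2 with 0.05 (SE 0.19, 95% interval -0.35 to 0.44) and Zfp414 with 0.01 (SE 0.23, 95% interval -0.47 to 0.50). These intervals do not show that MS1262 left the ratios as they were.

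In the input, 0 of 17693 genes passed between MS1262 and vehicle (0%, and 0 with DESeq2), with 1003 genes or 5.67% at an unadjusted p below 0.05 and none of the 10 among them. The median log2 difference of the 10 genes was -0.26, against -0.01 for all genes; it was -0.21 without vehicle animal 3 and 0.02 without vehicle animal 4. Id3 had the lowest estimate, -0.61 (SE 0.36, 95% interval -1.37 to 0.16), and Nosip followed with -0.57 (SE 0.31, 95% interval -1.24 to 0.10). P2ry6 had the highest, 0.64 (SE 0.43, 95% interval -0.29 to 1.56). With edgeR these had adjusted p of 0.869, 0.863 and 0.878.

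**Figure D5:**
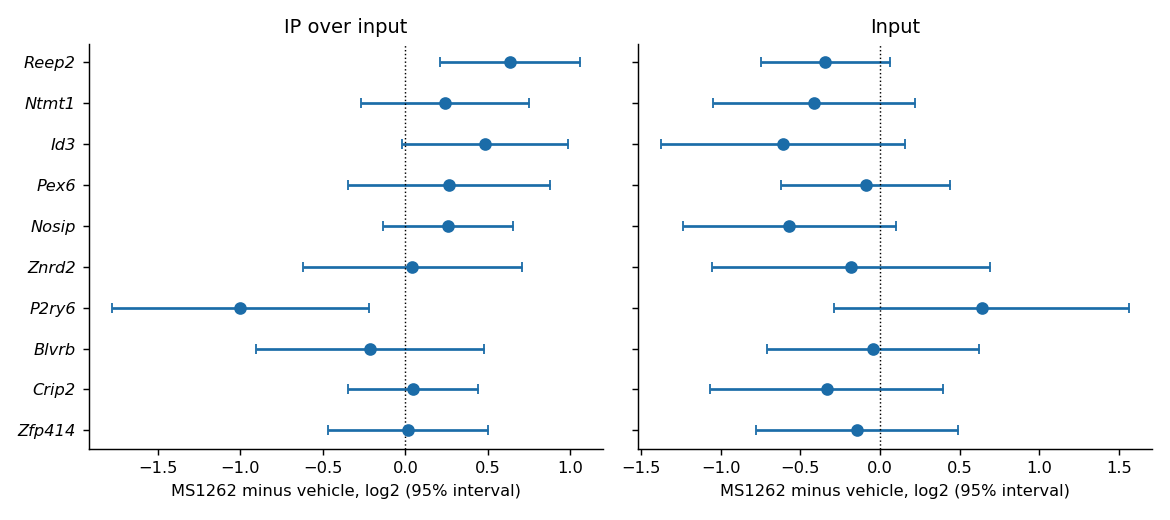
MS1262 minus vehicle in log2 units (x axis) for IP over input (left) and input (right), as edgeR estimates with 95% intervals from 4 animals per group. The intervals for Reep2 and P2ry6 in the left panel exclude 0, and all others in both panels include it.

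Relatives and partners of the 10 genes were tested over all genes in the same fits, and 1 of them passed in the fit with all animals and the count filter. Over all genes, 0.962% were called higher in vehicle and 1.22% in MS1262, and 0.0273% and 0.0219% lower. Counts of 0 in lists this short are near those shares. Of the other 5 genes of the Reep2 family, 0 passed in either comparison with wild-type, and Reep5 had 0.21 (SE 0.12, edgeR adjusted p = 0.520) in vehicle. Of 6 Id and E protein genes 0 passed, with Id1 at 0.54 (SE 0.45, edgeR adjusted p = 0.664) in vehicle, -0.26 (SE 0.44, edgeR adjusted p = 0.927) in MS1262 animals and -0.80 (SE 0.43, edgeR adjusted p = 1) in MS1262 against vehicle. Of the 15 other peroxin genes 0 passed in that fit, with Pex16, a membrane peroxin, at 1.03 (SE 0.32, edgeR adjusted p = 0.170) in vehicle and 1.15 (SE 0.31, edgeR adjusted p = 0.0931) in MS1262 animals. Pex16 was called in both comparisons by DESeq2 (adjusted p = 0.0445 and 0.0211) and by edgeR without the count filter (adjusted p = 0.00550 and 0.00101), and in MS1262 without vehicle animal 4 (edgeR adjusted p = 0.0144). Of 4 nitric oxide synthase genes and partners, 6 nucleotide receptor genes and 3 genes of haem breakdown, 0 passed. The gene with the smallest p of each list was Nos1 (-0.26 in MS1262), P2ry13 (-0.42 in vehicle) and Blvra (0.17 in MS1262 against vehicle). Of 4 cysteine-rich LIM genes Csrp1 passed in MS1262 animals, with 0.65 (SE 0.14, edgeR adjusted p = 0.0287), but not once any of the 8 wild-type or MS1262 animals was left out (edgeR adjusted p from 0.0528 to 0.122). DESeq2 called Csrp1 in both comparisons (adjusted p = 0.0394 in vehicle and 0.00302 in MS1262).

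Genes of the m6A machinery were tested in the same way. Of 8 writer genes, 2 eraser genes and 8 reader genes tested, 0 were called in any of the 3 comparisons of the ratio. Over all genes, 0.962% were called higher in vehicle, 1.22% in MS1262 and 0% either way in MS1262 against vehicle, so nothing is read from this 0. Mettl14, a core writer subunit, had 0.41 (SE 0.18, edgeR adjusted p = 0.404) in vehicle, the demethylase Fto -0.49 (SE 0.18, edgeR adjusted p = 0.276), and the reader Ythdc2 0.67 (SE 0.24, edgeR adjusted p = 1) in MS1262 against vehicle.

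A few glial markers were called beside the 10 genes, against 0.962% of all genes called higher in vehicle and 1.22% in MS1262. The median log2 ratio difference was 0.10 in vehicle and 0.18 in MS1262 over the microglia markers and -0.15 and -0.13 over the astrocyte markers, against -0.06 and 0.00 over all genes. Of 12 microglia markers 2 were called higher in each comparison with wild-type and 0 lower: Trem2, a lipid receptor of microglia, at 1.37 (SE 0.20, edgeR adjusted p = 0.00550) in vehicle and 1.29 (SE 0.20, edgeR adjusted p = 0.00459) in MS1262, and the complement gene C1qb at 0.80 (SE 0.17, edgeR adjusted p = 0.0370) and 1.04 (SE 0.17, edgeR adjusted p = 0.00675). The vehicle call for C1qb was lost in 8 of the 12 fits that left out 1 animal (any wild-type animal, vehicle 1 or 3, or MS1262 2 or 3), with an edgeR adjusted p of up to 0.157, whereas Trem2 and Gfap were called in all 12 in both comparisons. Without the animal as a block, Trem2, C1qb and Gfap were not called (edgeR adjusted p from 0.527 to 0.903). Of 8 astrocyte markers only Gfap, the intermediate filament of reactive astrocytes, was called, at 1.39 (SE 0.17, edgeR adjusted p = 0.00210) and 1.72 (SE 0.17, edgeR adjusted p = 0.000206). Of the endothelial, fibroblast, choroid plexus, oligodendrocyte, neuron, hippocampus and red blood cell lists, 0 genes were called in the fit with all animals and the count filter. The hippocampus marker C1ql2, at 1.46 in vehicle (edgeR adjusted p = 0.0799), was called by DESeq2 (adjusted p = 0.0194). So was the oligodendrocyte marker Mag, at 0.70 in MS1262 (edgeR adjusted p = 0.0749, DESeq2 0.0250). With 1 animal left out, edgeR called Mag and the neuron marker Syt1 (-0.26) in MS1262 in 1 of 12 fits each (adjusted p = 0.0135 and 0.0115). The smallest p of the endothelial, choroid plexus and red blood cell lists belonged to Ly6c1 (-0.59 in vehicle), Clic6 (-0.81 in MS1262) and Hbb-bs (-0.38 in MS1262). Of all these lists, the 5 meninges and fibroblast markers had the highest medians, 0.58 in vehicle and 1.20 in MS1262. Among them Col1a2, a fibrillar collagen, was at 1.18 (SE 0.33, edgeR adjusted p = 0.127) and 1.21 (SE 0.33, edgeR adjusted p = 0.0986). DESeq2 called Col1a2 in both comparisons (adjusted p = 0.0293 and 0.0296), and edgeR called it in MS1262 in 1 of the 12 fits that left out 1 animal (adjusted p = 0.0413). In the input these 5 markers, none at 0, summed to 99.4 to 176 CPM in wild-type animals, 95.01 to 219.5 with vehicle and 54.3 to 173 with MS1262. In the input the 12 microglia markers, none at 0, summed to 329 to 364 CPM in wild-type animals, while the sums were 371 to 830.5 CPM with vehicle and 546 to 699 CPM with MS1262. The 8 astrocyte markers, none at 0, summed to 6449 to 8464, 6656 to 10059 and 7822 to 8578 CPM. Whether these cells have a part in the ratios of the 10 genes was not tested.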

How the data were processed

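Poly(A) RNA from hippocampus was measured in 12 mice, each with 1 input and 1 m6A IP library. Per the labels' protocols, 10% of 150 ng mRNA was kept as input, the rest was bound by a polyclonal anti-m6A antibody and eluted with free m6A, and both were copied from an oligo-dT primer by the SMART-seq method. No fragmentation step is named there, so IP values were read per transcript. Without molecular identifiers, amplified copies of 1 molecule count more than once, and the number of counts limits the precision of weak genes.

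The authors deposited estimated counts per gene. Tools in the submitters' processing notes are MACS2 2.1.2, SAMtools 1.10, Salmon 1.4.0, STAR 2.7.6a, Trimmomatic 0.32 and bcl2fastq 2.17.1.14, with the builds mm10 and GRCm38. Of the estimated counts, 8.62% were not whole, and all were rounded before testing. TPM values, scaled for transcript length, were also deposited by the authors. Per the file headers, peaks were called in each animal with MACS2 on read 1 of the IP against the same animal's input, at a q cutoff of 0.5, with called summits, an extension of 200 bases and a genome size of 1e+08. The pileup signal, the −log10 p and −log10 q and the fold enrichment of each peak are the authors' values, as deposited, and served only to describe peaks within a list. Peaks were assigned to a gene by at least 1 base of overlap with its body in the RefSeq table of GRCm38.p6, since no exons were at hand.

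The ratio of IP to input was tested with edgeR 4.0.16 (quasi-likelihood test, TMM scaling, minimum count 10, 2-sided, Benjamini-Hochberg over 18300 genes, threshold 0.05), with the animal as a block and a term for IP in each group, and input levels over 17693 genes in the 12 input libraries. Levels per animal are CPM with TMM scaling over all 24 libraries, and log2 values use a prior count of 2. Differences of group means in log2 CPM add up from the input and IP parts. Alternatives were DESeq2 1.42.0, upper quartile scaling, no count filter, limma 3.58.1 on log2(TPM + 1) and log2(TPM + 0.1), no animal block, separate scaling and another prior count for the split, stricter peaks, and each animal left out. R 4.3.3, Python 3.11.15, pandas 2.3.3, numpy 2.4.6 and matplotlib 3.10.9 were used. On counts simulated for vehicle against wild-type over 17669 genes, the fit recovered 63% of genes changed by a log2 of 1 and 99% of those changed by 2, with 4.14% false among the calls. The simulation gave all genes the same spread, changed only genes with higher counts and held no outlying animal. These shares therefore do not carry over to the real libraries or to weak genes.

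The animal block pairs input and IP of 1 mouse, which correlated best with each other in 12 of 12 animals (r 0.19 to 0.43, deviations from group means). Same numbers in different groups did not pair animals (r -0.09 to 0.04). Animals are separate mice per the labels, which name no batch. The 10 genes and the lists of related genes and markers were chosen with earlier results of these data known. Named beside the 10 genes are, of each list, up to 4 genes past the threshold or else the gene with the smallest p, and the 5 genes of most similar ratio profile. Further relatives of Ntmt1 are not analysed here.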

Additional observations from a re-analysis of the deposited data

Results flagged for a closer look

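Dixon's 95% critical value marks 1 animal in a set of 4 that lies too far from the nearest of the other 3. It was passed in 5 of 90 sets (10 genes, 3 groups, and input, IP and ratio). By chance a single set would pass it about 1 time in 20. The sets share animals and libraries, and the ratio is built from input and IP, so the 5 are not weighed against this rate. In the input, Reep2 was at 2.48 log2 CPM in MS1262 animal 3, with the next animal at 2.88. Pex6 was at 2.78 in wild-type animal 1, above the next at 2.34, and Crip2 was at 5.91 in wild-type animal 4, below the next at 6.62. In the IP, vehicle animal 4 had the highest value for Ntmt1 (5.72, next 4.58) and Zfp414 (5.35, next 4.41). This animal also had the shallowest IP library, with 3984481 counts. The part of depth in these values was not tested.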

How the results depend on the processing

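Counts of genes past the threshold and some values of the 10 genes depended on the setting. With limma on log2(TPM + 1) the vehicle ratio difference was 0.89 for Pex6 and 0.94 for P2ry6, and that of Pex6 in MS1262 was 1.098. For P2ry6 in MS1262 it was 0.49 on log2(TPM + 1) and 0.56 on log2(TPM + 0.1), against 0.75 with edgeR. The 10 genes past the threshold in vehicle and 8 in MS1262 became 5 and 4 with limma on log2(TPM + 1) and 6 and 4 on log2(TPM + 0.1). As these contrasts chose the 10 genes, nothing is read from these counts either. For vehicle against wild-type, edgeR called 181 genes, DESeq2 491, edgeR without a count filter 489, limma on log2(TPM + 1) 80 and on log2(TPM + 0.1) 92, and leaving out 1 animal gave 33 (without wild-type 4) to 408 (without vehicle 4). Counts outside 1.5 times were also 39 without wild-type 1, 113 without wild-type 2, 114 without wild-type 3, 41 without vehicle 1, 112 without vehicle 2, and 99, 110 and 118 without MS1262 2, 3 and 4. For MS1262 against wild-type the counts were 227, 488, 502, 13 and 14, and 58 (without wild-type 1) to 858 (without vehicle 4), with 65 without wild-type 4 and 84, 67 and 106 without MS1262 2, 3 and 4. Without the replicate block of the animal these comparisons called 0 and 1 genes. For MS1262 against vehicle in the ratio, the count of 0 became 2 with DESeq2 and 42 without a count filter, and was 0 to 0 without 1 animal. In the input it was 0 to 2 without 1 animal (2 without vehicle 2, 1 without vehicle 3) and 0 with the replicate number as a block, a number that does not pair animals across groups. The median IP part of the 10 genes in MS1262 animals was 0.85 in CPM, 0.68 on log2(TPM + 1), and 0.65 to 1.04 without 1 animal. The share of gene and animal pairs with a peak in wild-type was 6.67% without animal 2 and 20% without animal 1 or 4. No called value reversed under these settings. Depth limits P2ry6 most, at 12 counts in 1 input library. The causes were not tested.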
